A study of Mus musculus with 9 samples.

Results

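The DOCK genes encode a family of guanine nucleotide exchange factors that switch on the small GTPases Rac and Cdc42. Of the 18755 genes in the deposited count table, 9 members were described here: Dock1, Dock2, Dock4, Dock5, Dock6, Dock8, Dock9, Dock10 and Dock11. They were found by Entrez identifier through RefSeq symbols; Dock3 was kept apart from the members. The members were selected on a view of their measured values in treated and vehicle tumors, so that comparison is given for them as a description and not as a test.

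Small GTPases such as Rac and Cdc42 are inactive when bound to GDP, and exchange factors load them with GTP. DOCK proteins do this with a catalytic domain called DHR2, which is unrelated to the DBL-type domain of most other exchange factors of these GTPases. Proteins of the DOCK-A and DOCK-B subfamilies act on Rac together with ELMO adaptors, whereas DOCK-C proteins act on Rac and Cdc42 and DOCK-D proteins act mainly on Cdc42. FAK reaches this pathway through its scaffold partner p130Cas, encoded by Bcar1, which binds CRK and thereby DOCK1. Dock2, Dock8, Dock10 and Dock11 are known for their expression in blood cells.

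The samples were 4T1 primary tumors, grown from 1000000 cells of a murine breast carcinoma line placed in the mammary fat pad of female BALB/c mice aged 6 to 10 weeks. All animals shared the cell line, the strain and 5 days of dosing from day 15. The vehicle group (n = 3) received 0.5% Natrosol and the BI group (n = 6) received 50 mg/kg of the FAK inhibitor BI 853520, abbreviated BI. The authors analysed only tumors whose RNA quality was sufficient, so both groups are what remained after that choice. RNA came from whole tumor pieces, so that a lower number of cells of a type and less RNA per cell cannot be told apart. Counts summed to between 16931607 and 33850245 per tumor, and every tumor pair within a group differed by more than counting error (mean chi-square per gene at least 8.83). All 9 epithelial and all 9 pan-leukocyte markers passed the filter on low counts, and no marker tested was at the floor of 3 counts. No batch is named in the labels. Neither the labels nor the methods say whether strand was used in counting, and the exons of Dock2 overlap those of 4930403D09Rik on the other strand, so that their reads may not be separable.

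Expression is given as CPM, the counts scaled to a library of 1000000 reads after TMM normalization, and levels between genes as CPM per kilobase of the deposited gene length (RPKM). A gene was called at an adjusted p of 0.05 or less, by the quasi-likelihood test of edgeR over all genes. Of the 9 members, 4 were called higher in BI tumors, where 14.6% of the 13966 genes tested were, and 2 were called lower, where 14.1% of all genes were. The same 4 and 2 members had no overlap between the groups, which held for 14.1% of all genes in the upward, 14.0% in the downward and 28.1% in either direction. The remaining 3 members were not called. The median log2 fold change was 0.14 over the 9 members and -0.004 over all genes tested. Since this contrast was part of the choice, nothing is read from these counts.

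The promoters of Dock2 and Dock1 are shown because these genes of the DOCK-A subfamily had different values in the comparison, and Dock5 had no entry. Each run holds the 250 bases before the RefSeq transcription start on GRCm38.p6, 5′ to 3′ on the strand of the gene, with each CpG dinucleotide in capitals. That of Dock2 lies at chr11:34783906-34784155 on the minus strand and that of Dock1 at chr7:134670437-134670686 on the plus strand.
Dock2: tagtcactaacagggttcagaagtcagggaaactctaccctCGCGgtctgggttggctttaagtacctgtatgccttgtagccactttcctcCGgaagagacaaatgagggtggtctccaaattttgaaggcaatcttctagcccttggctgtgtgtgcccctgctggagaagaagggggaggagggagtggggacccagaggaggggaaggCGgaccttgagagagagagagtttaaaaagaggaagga
Dock1: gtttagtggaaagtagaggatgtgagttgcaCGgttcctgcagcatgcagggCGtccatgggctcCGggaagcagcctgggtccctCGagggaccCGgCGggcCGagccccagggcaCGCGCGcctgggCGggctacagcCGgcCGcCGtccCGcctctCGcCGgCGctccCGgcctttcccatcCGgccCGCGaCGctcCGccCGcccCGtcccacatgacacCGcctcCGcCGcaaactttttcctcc
The Dock2 promoter held 4 CpG and 52.8% G and C, and the Dock1 promoter 29 CpG and 71.6%, where the median of 32851 RefSeq promoter entries of the same length was 6 CpG and 52.4%. Of the other members called higher, the Dock8 promoter held 43 CpG, the Dock10 entries 27 and 5, and the Dock11 promoter 18. The entries of Dock9, called lower, held 3, 34 and 7. The promoters of Dock4 and Dock6, not called, held 24 and 20. A relation between the number of CpG and the direction was not tested. RefSeq gave 11 promoter entries for 8 of the members. The letters GAGGAA, a core bound by ETS factors such as PU.1, were searched on both strands and lay 9 bases before the start of Dock2, and again on its other strand, 164 bases before it. The same letters were found on the other strand of Dock1, 7 bases before the start, in 3 of the 11 member entries in all and in 23.3% of all entries. The RUNX core TGTGGT was found in none of the 11 entries and in 14.0% of all entries. These matches are descriptions of letters and not of binding.

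Dock2 encodes the Rac activator of lymphocytes and myeloid cells that is needed for their migration toward chemokines. It lies on chromosome 11 of mm9 from 34126815 to 34597394. Its level was 68.4, 62.4 and 57.5 CPM in the 3 vehicle tumors, and in BI tumors it ran from 96.0 to 115 CPM with a median of 106 CPM. All 6 BI tumors lay above every vehicle tumor. The log2 fold change was 0.76 (SE 0.0753), from a mean of 62.8 ± 5.49 CPM (SD, n = 3) to 106 ± 7.34 CPM (SD, n = 6).

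Dock1 encodes DOCK180, the broadly expressed Rac activator of engulfment and cell spreading, and lies on chromosome 7 from 141862370 to 142365322. It had 103, 101 and 108 CPM in vehicle tumors and between 88.0 and 108 CPM in BI tumors, with a median of 95.8 CPM. The groups overlapped, with 4 of 6 BI tumors below every vehicle tumor, and the log2 fold change of -0.10 (SE 0.0703) was not called. Dock5, the Rac activator known from osteoclasts, lies on chromosome 14 from 68369985 to 68551629. It had 141, 128 and 144 CPM in vehicle tumors and between 103 and 114 CPM in BI tumors, with a median of 107 CPM. Every BI tumor was below every vehicle tumor, with a log2 fold change of -0.35 (SE 0.0562). The 3 DOCK-A genes thus stood on different sides: 1 was called higher, 1 lower and 1 neither.

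**Figure D1:**
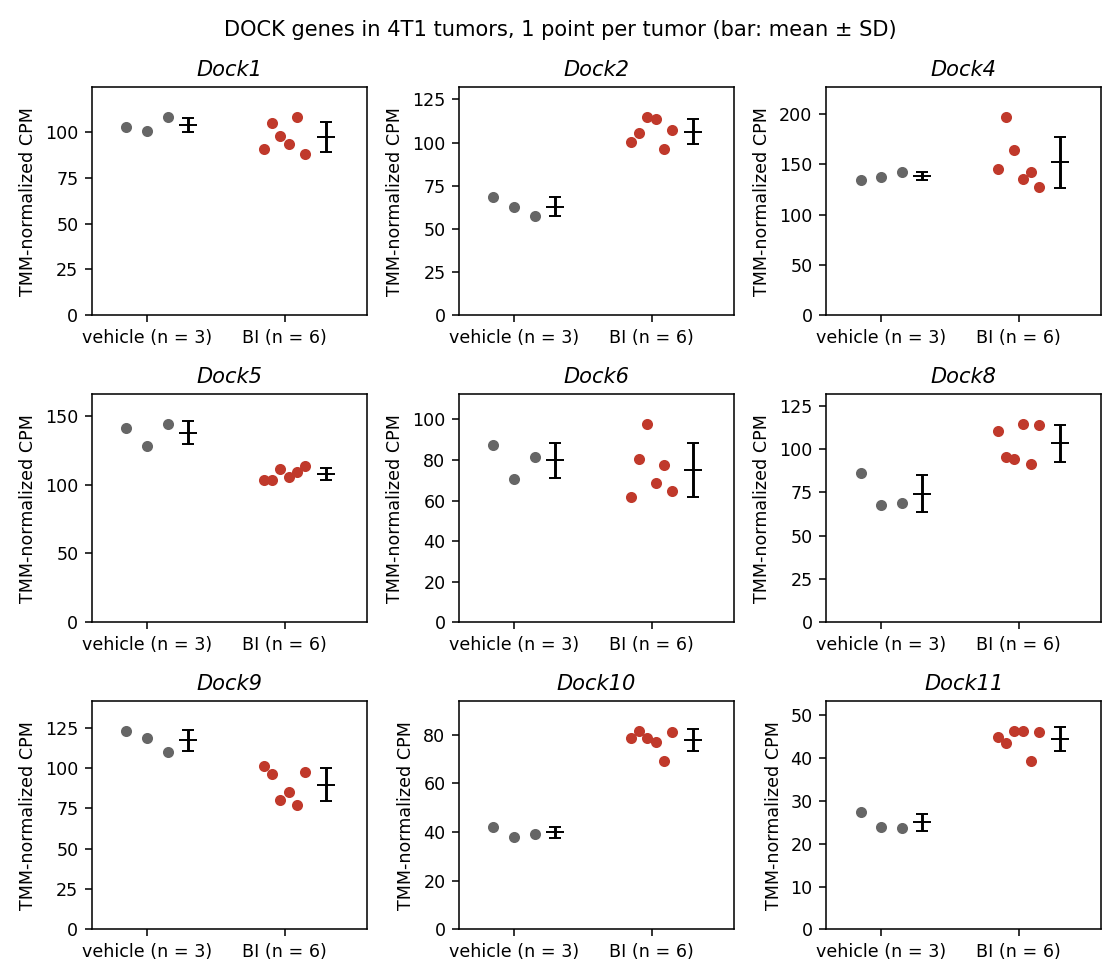
TMM-normalized CPM (vertical axes, from 0) of the 9 DOCK genes, with 1 point for each of 3 vehicle tumors (grey) and 6 BI tumors (red) and a bar for the mean ± SD. Dock2, Dock8, Dock10 and Dock11 lie higher in every BI tumor than in any vehicle tumor, Dock5 and Dock9 lie lower, and the groups overlap for Dock1, Dock4 and Dock6.

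Dock4, the DOCK-B member, activates Rac in migrating cells and lies on chromosome 12 from 41172640 to 41573073. It had 135, 137 and 143 CPM in vehicle tumors, close to one another. BI tumors ran from 128 to 197 CPM with a median of 144 CPM, and the highest value came from BI replicate 2. The groups overlapped, with 3 BI tumors above and 1 below every vehicle tumor, and the log2 fold change of 0.14 (SE 0.115) was not called. Without BI replicate 2 it was 0.05.

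In the DOCK-C subfamily, Dock8 encodes a Cdc42 activator of lymphocytes and dendritic cells, whose loss causes an immunodeficiency. It lies on chromosome 19 from 25074019 to 25276922. Its level was 86.4, 67.7 and 69.0 CPM in vehicle tumors and between 91.3 and 115 CPM in BI tumors, with a median of 103 CPM. The groups did not overlap, although vehicle replicate 1 came close to the lowest BI tumor, and the log2 fold change was 0.48 (SE 0.102). Dock6, which acts on Rac and Cdc42, lies on chromosome 9 from 21604628 to 21657079. Its 87.6, 70.4 and 81.7 CPM in vehicle tumors lay within the span of the BI tumors, 61.9 to 97.7 CPM with a median of 73.1 CPM, and its log2 fold change of -0.09 (SE 0.129) was not called. It was -0.02 without vehicle replicate 1, -0.04 without BI replicate 1, -0.05 without BI replicate 6, -0.17 without vehicle replicate 2 and -0.18 without BI replicate 3.

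The DOCK-D subfamily held members in both directions. Dock10, known from lymphocytes, lies on chromosome 1 from 80497648 to 80755128 and had 42.2, 38.0 and 39.3 CPM in vehicle tumors. BI tumors ran from 69.3 to 81.5 CPM with a median of 78.6 CPM. The groups were far apart, with a log2 fold change of 0.96 (SE 0.0662), a ratio of 1.95. Dock11, a Cdc42 activator that itself binds active Cdc42, lies on chromosome X from 33428827 to 33616557. It had 27.4, 23.9 and 23.7 CPM in vehicle tumors and between 39.3 and 46.3 CPM in BI tumors, with a median of 45.6 CPM. All 6 BI tumors were above, and the log2 fold change was 0.83 (SE 0.0772).

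Dock9, the broadly expressed Cdc42 activator also called zizimin1, lies on chromosome 14 from 121941261 to 122196956. It went the other way within this subfamily, with 123, 119 and 110.0 CPM in vehicle tumors and between 77.0 and 101 CPM in BI tumors, with a median of 90.9 CPM. All 6 BI tumors were below every vehicle tumor, and the log2 fold change was -0.39 (SE 0.0884). Dock3, known from neurons, had between 0 and 6 counts per tumor and was not tested.

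**Figure D2:**
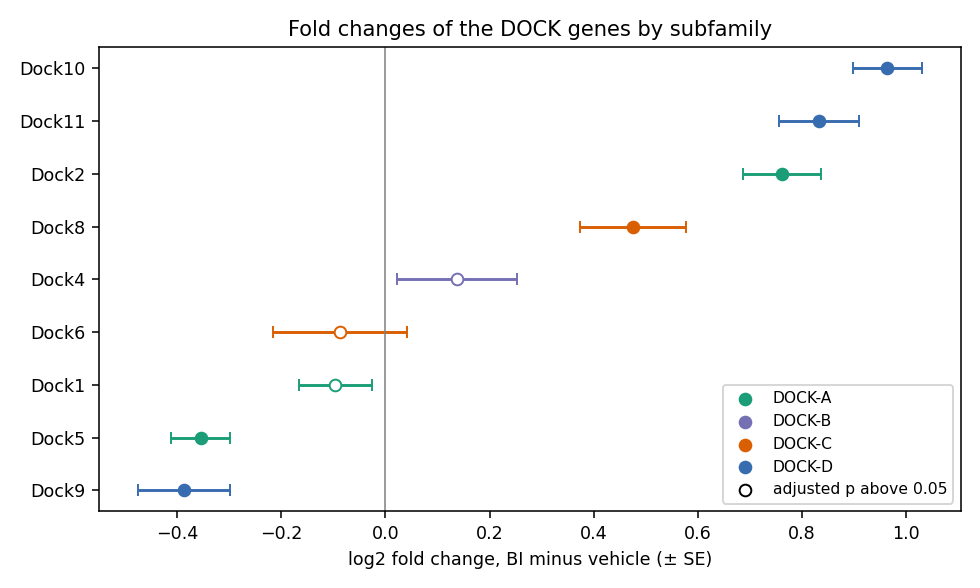
Log2 fold change of BI against vehicle tumors (horizontal axis, ± SE from edgeR) for the 9 members, coloured by subfamily, with open points for an adjusted p above 0.05. DOCK-A and DOCK-D each hold genes called in both directions, from -0.39 for Dock9 to 0.96 for Dock10. In DOCK-C, Dock8 was called higher and Dock6 (-0.09, SE 0.129) was not called.

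Levels between genes were compared per length, as a description, since the members were chosen on a view of the values in both groups. In vehicle tumors the mean level ran from 17.1 ± 0.502 RPKM (SD, n = 3) for Dock4 to 3.75 ± 0.312 RPKM for Dock11, a ratio of 4.57. Between them came Dock1 at 15.3, Dock5 at 13.3, Dock9 at 13.2, Dock6 at 12.2, Dock2 at 9.79, Dock8 at 9.52 and Dock10 at 5.45 RPKM. The ranges of Dock5 and Dock9, of Dock9 and Dock6, and of Dock2 and Dock8 overlapped, so these neighbours did not differ beyond their spread. The 4 genes known from blood cells were thus the 4 lowest in vehicle tumors. They are also the 4 called higher in BI tumors, and the vehicle level is 1 side of that contrast, so the order is not independent of it.

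In BI tumors Dock4 remained highest by its mean, 18.8 ± 3.12 RPKM (SD, n = 6), and exceeded Dock2 in 4 of 6 tumors. Dock2 came next at 16.6 ± 1.14 RPKM and exceeded Dock1, at 14.3 ± 1.17 RPKM, in 5 of 6 tumors. Then followed Dock8 at 13.2, Dock6 at 11.5, Dock10 at 10.6, Dock5 at 10.4, Dock9 at 10.1 and Dock11 at 6.67 RPKM. Ranges of neighbours overlapped at every step of this order except between Dock9 and Dock11.

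The summed level of the 9 members was 104, 95.5 and 99.1 RPKM in vehicle tumors and 107 to 119 RPKM in BI tumors, with no overlap. The share of this sum that came from Dock2, Dock8, Dock10 and Dock11 was 30.3%, 28.5% and 27.0% in vehicle tumors and between 38.9% and 45.1% in BI tumors. The share of Dock5 went from 13.4% ± 0.601 (SD, n = 3) to 9.31% ± 0.596 (SD, n = 6), and that of Dock4 overlapped between the groups. These shares use the same contrast as the choice of members and are a description. Within subfamilies, the ratio of Dock2 to Dock1 in RPKM was 0.564 to 0.707 in vehicle tumors and 0.942 to 1.29 in BI tumors. The ratio of Dock10 to Dock9 was 0.389 to 0.435 in vehicle tumors and 0.943 to 1.19 in BI tumors. The ratio of Dock8 to Dock6 overlapped between the groups, at 0.71 to 0.83 in vehicle and 0.81 to 1.5 in BI tumors.

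**Figure D3:**
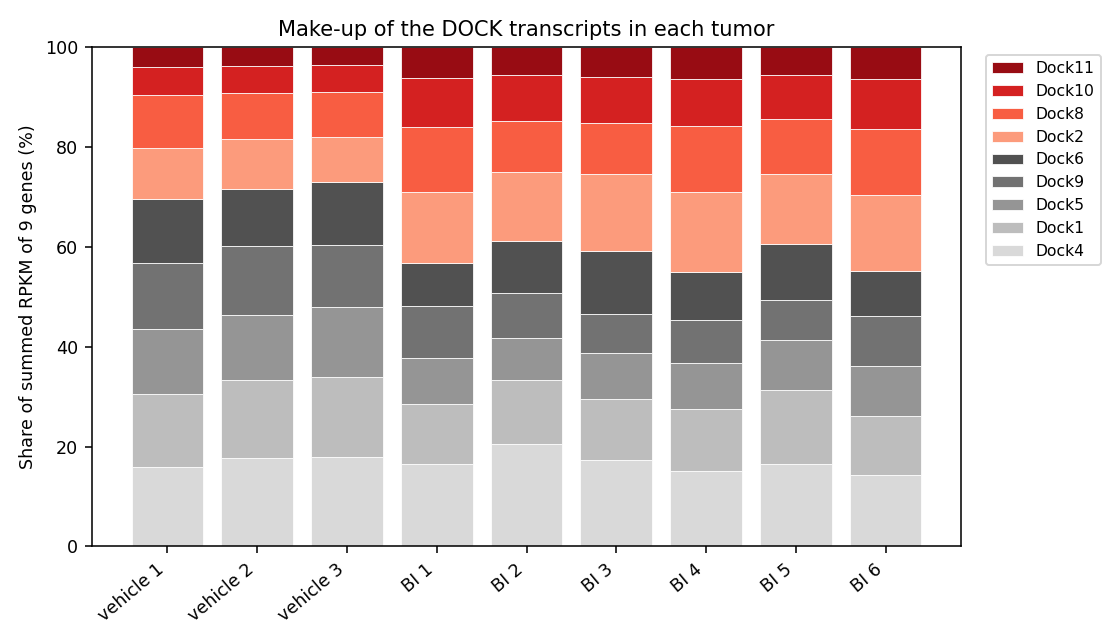
Share of the summed RPKM of the 9 members (vertical axis, percent) in each tumor, with Dock2, Dock8, Dock10 and Dock11 in red and the other genes in grey. The red part takes 27.0% to 30.3% in vehicle tumors and 38.9% to 45.1% in BI tumors.

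Leukocyte markers were higher in the same tumors. The 9 pan-leukocyte markers were all called higher, and their summed level was 1750 to 1968 CPM in vehicle tumors and 2440 to 2849 CPM in BI tumors. Their mean log2 CPM differed by 0.55 (exact permutation test over 84 divisions, two-sided, p = 0.0238, the smallest it can give; adjusted p = 0.0381 over 8 marker lists). Ptprc, which encodes the pan-leukocyte antigen CD45, rose from 174 ± 7.98 CPM to 289 ± 33.7 CPM, with a log2 difference of 0.73 (SE 0.0941, adjusted p = 0.000225 in the edgeR test). The macrophage list was higher in 6 of 6 BI tumors by 0.91 and the T cell list by 0.97, while the neutrophil list was lower in 6 of 6 (-0.94), each with the same exact permutation p = 0.0238 and adjusted p = 0.0381. The macrophage sum was 1368 to 1813 CPM in vehicle and 2632 to 3342 CPM in BI tumors, the T cell sum 50.1 to 54.4 and 87.2 to 130.0 CPM, and the neutrophil sum 484 to 701 and 195 to 341 CPM. The neutrophil list held 3 of its 4 genes, without Ly6g, of which S100a8 and S100a9 were called lower and Csf3r was not called. The B cell list was low in both groups, with sums of 4.43 to 7.98 and 5.80 to 10.8 CPM.

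Of the other lists, the endothelial list differed by 0.29 (exact permutation p = 0.0238, adjusted p = 0.0381). The fibroblast list differed by 0.50, near the 0.55 of the leukocyte list, but its groups overlapped (exact permutation p = 0.0714). The epithelial list differed by -0.05 (exact permutation p = 0.714), while the median log2 fold change over its 9 genes was 0.11. Its score was below every vehicle tumor in 4 of 6 BI tumors and above them all in 1, BI replicate 6. The epithelial sum was 965 to 1191 CPM in vehicle and 759 to 967 CPM in BI tumors. Of the 9 epithelial genes, Krt8 and Krt18 fell and 7 did not pass. Among the most abundant genes of the lists, Lcp1 had a log2 fold change of 0.33, Mrc1 0.82, Cd8a 1.23, Cd79b 1.13, S100a9 -1.30, Krt18 -0.50, Eng 0.13 and Col1a1 0.96, and those of Eng and Col1a1 were not called. The part of these cell types in the values of the DOCK genes was not tested.

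Values relative to Ptprc show how the members compare with a leukocyte gene in the same tumor. The log2 ratio of Dock2 to Ptprc was -1.42, -1.42 and -1.58 in vehicle tumors and between -1.60 and -1.25 in BI tumors, so the groups overlapped. The ratio of Dock11 also overlapped, at -2.86 to -2.74 in vehicle and -2.85 to -2.56 in BI tumors. Dock10 relative to Ptprc was higher in all 6 BI tumors (-2.14 to -2.12 against -2.11 to -1.75), and Dock8 was lower in all 6 (-1.32 to -1.08 against -1.54 to -1.34). Against the sum of all 9 leukocyte markers, Dock2, Dock10 and Dock11 were each higher in 6 of 6 BI tumors, and Dock8 overlapped. The ratios of Dock1, Dock4, Dock5, Dock6 and Dock9 to Ptprc were lower in all 6 BI tumors. Against the sum, Dock1, Dock5 and Dock9 were lower than every vehicle tumor in all 6, and Dock4 and Dock6 in 5. Ptprc itself was higher in BI tumors, so a gene with an unchanged level would also have a lower ratio. These ratios use the same contrast as the choice of members and are a description.

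**Figure D4:**
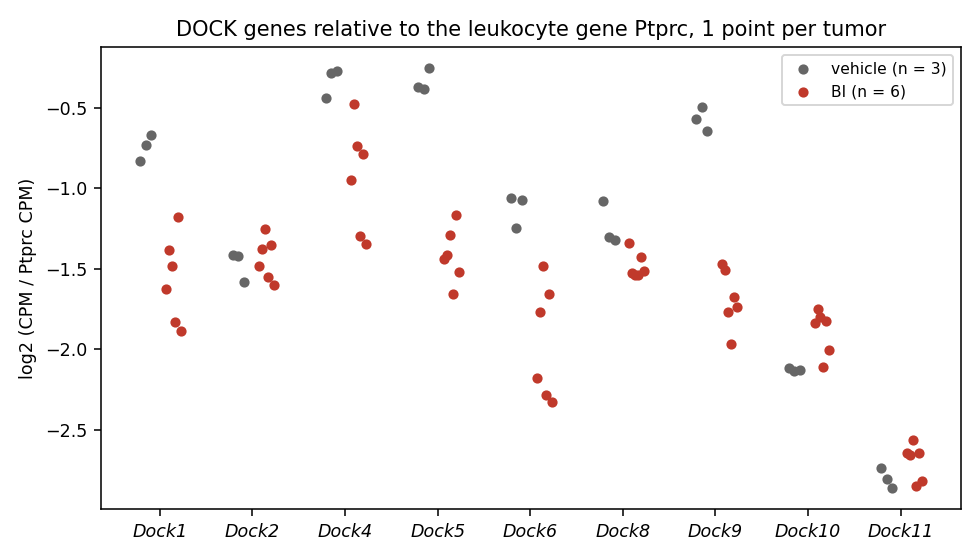
Log2 of the CPM of each member over the CPM of Ptprc (vertical axis) in 3 vehicle tumors (grey) and 6 BI tumors (red). The groups overlap for Dock2 and Dock11, Dock10 is higher in BI tumors, and the other 6 members are lower in BI tumors.

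Relations among the 6 BI tumors do not use the contrast between the groups. Each member was compared with 4 marker scores, which gave 36 relations. None passed an adjusted p of 0.05 in the exact permutation test on Pearson's r, whose smallest adjusted p was 0.35, and 4 reached 0.05 before adjustment. The smallest exact permutation p that 6 tumors allow is 0.00278, which is 0.1 after adjustment for a single relation among 36, so that no relation could have passed on its own. Dock8 had the largest positive r, 0.95 with the leukocyte score (exact permutation p = 0.0194, adjusted p = 0.35; Spearman's rho 0.83, exact p = 0.0583, n = 6). Without the 2 tumors farthest from the median score, r was 0.95. The r of Dock8 was also 0.84 with the fibroblast score (exact permutation p = 0.0583, adjusted p = 0.357), and 0.37 and 0.32 with the endothelial and epithelial scores. Among the 4 that reached 0.05 were Dock4 with the leukocyte score (r -0.76, exact permutation p = 0.0333) and Dock5 with the epithelial score (r 0.71, exact permutation p = 0.05), each with an adjusted p of 0.357. Dock6 had the largest negative r, -0.94 with the fibroblast score (exact permutation p = 0.0167, adjusted p = 0.35; Spearman's rho -0.83, exact p = 0.0583, n = 6), and -0.93 without the 2 farthest tumors. Dock2 had an r of 0.34 with the leukocyte score (exact permutation p = 0.458, adjusted p = 0.87; Spearman's rho 0.43, exact p = 0.419, n = 6), and -0.26 without the 2 farthest tumors.

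Likeness of single genes was taken as Pearson's r of log2 CPM over all 9 tumors after the mean of each group was subtracted, over 10360 genes with a mean log2 CPM of at least 3. It is a description, and all genes of a tumor share its library. Each gene named as most like a member has the highest r among these 10360 genes over only 9 tumors. A high r can arise there without a link between the genes, and no test was run. Among the members, the 36 pairs had r from -0.70 to 0.85 with a median of 0.13. The highest was Dock2 with Dock11 at 0.85, followed by Dock10 with Dock11 at 0.82 and Dock8 with Dock11 at 0.79, and the lowest was Dock1 with Dock8. The genes most like Dock2 were C1qb (0.94), Tmem260 (0.93) and Apobec1 (0.92). Those most like Dock8 were Was (0.97), Fcer1g (0.97) and Rnaseh2a (0.96), and those most like Dock11 were C3ar1 (0.96), Cept1 (0.96) and Plcb2 (0.96). Dock10 was most like Phka2 (0.97), Rtn3 (0.96) and Smarca2 (0.95).

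The members with lower or overlapping values had other neighbours. Dock9 was most like Tpsb2 (0.94) and Cpa3 (0.93), both mast cell proteases, and Hdac9 (0.93), although Tpsb2 had a log2 fold change of 3.25 and Dock9 of -0.39. Dock5 was most like Cavin2 (0.97), Slamf7 (0.95) and Shmt1 (0.95). Dock1 was most like Zfp12 (0.98), Nfix (0.98) and Arhgef17 (0.97), Dock4 was most like Man2a2 (0.98), Pbx3 (0.98) and Vps13d (0.97), and Dock6 was most like Enpp5 (0.99), Rnf14 (0.99) and Smyd4 (0.97).

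The wider pathway was followed in 100 other genes, of which 96 were tested. Of these, 38 rose, 11 fell and 47 did not pass, so that 51.0% were called, where 28.7% of all genes tested were. Their median log2 fold change was 0.17. Without vehicle replicate 3, 7 were called lower. No test compared this share with other genes. The lists were chosen with earlier results of these data known, so the share is a description and nothing is read from it.

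Of 16 genes listed as adaptors and partners of DOCK proteins, 3 rose and 2 fell, where 28.7% of all genes tested were called. The median log2 fold change of this list was 0.01. Elmo1, the ELMO partner of DOCK2 in leukocytes, rose from 24.6, 20.5 and 19.7 CPM to between 28.9 and 35.6 CPM, with a log2 difference of 0.59 (SE 0.0950, adjusted p = 0.000921 in the edgeR test), and was higher in 6 of 6 BI tumors. Elmo2 (0.08, adjusted p = 0.352) and Elmo3 (-0.30, adjusted p = 0.236) did not pass the same edgeR test, and without vehicle replicate 2 their log2 fold changes were 0.03 and -0.17; that of Elmo3 was -0.47 without vehicle replicate 3. Fam89b, whose place among the partners of DOCK proteins was not established here, rose by 0.38 on the log2 scale (SE 0.0599, adjusted p = 0.000734). Bcar1, the p130Cas scaffold between FAK and CRK, fell from 73.9, 75.2 and 76.0 CPM to between 48.1 and 64.8 CPM, with a log2 difference of -0.45 (SE 0.0871, adjusted p = 0.00266), and was lower in 6 of 6 BI tumors. Crk, its binding partner, had a log2 fold change of -0.09 (adjusted p = 0.207). Ptk2, which encodes FAK itself, the kinase the inhibitor acts on, fell by 0.20 on the log2 scale (adjusted p = 0.0259), and Stk4 rose by 0.17 (adjusted p = 0.0440). Ptk2 lost its call without vehicle replicate 1, vehicle replicate 3 or BI replicate 4, and Stk4 in 9 alternatives.

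Of 7 GTPases, 4 rose and none fell. Rac2, the Rac of blood cells, rose from 106, 87.5 and 94.6 CPM to between 139.6 and 189 CPM, with a log2 difference of 0.77 (SE 0.102, adjusted p = 0.000264 in the edgeR test). Rac1, the ubiquitous Rac, had 532 ± 28.7 CPM (SD, n = 3) and 541 ± 28.2 CPM (SD, n = 6), a log2 fold change of 0.02 (SE 0.0648) that did not pass (adjusted p = 0.823). Rhog, which binds ELMO, rose by 0.42 (adjusted p = 0.00460) and Rhoj by 0.47 (adjusted p = 0.0194). Cdc42, the target of the DOCK-D proteins, rose by 0.19 (SE 0.0623, adjusted p = 0.0356), but its call was lost in 8 alternatives, with an adjusted p of up to 0.120 without vehicle replicate 3. Rhoj had an adjusted p of 0.0927 without vehicle replicate 1.

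Of 7 receptors tested that signal through ELMO and DOCK proteins, 3 rose and 1 fell. Ccr7, the chemokine receptor that guides lymphocytes and dendritic cells to lymph nodes, rose by 1.08 on the log2 scale (SE 0.194, adjusted p = 0.00183 in the edgeR test). The engulfment receptor gene Mertk rose by 0.90 (adjusted p = 0.00573) and Itgb5 by 0.28 (adjusted p = 0.0433), the last not passing in 8 alternatives, with an adjusted p of up to 0.178 without vehicle replicate 1. Itgav, the integrin alpha chain that pairs with the product of Itgb5, fell from 439 ± 39.1 CPM to 319 ± 26.7 CPM, with a log2 difference of -0.46 (SE 0.0818, adjusted p = 0.00167).

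Of 24 actin effectors tested, 10 rose and 3 fell. Genes of WAVE and WASP complex subunits were among the rises, with log2 fold changes of 0.67 for Nckap1l, known from blood cells (SE 0.0628, adjusted p = 3.84e-05 in the edgeR test), 0.91 for Was, also known from blood cells (SE 0.114, adjusted p = 0.000188) and 0.93 for Cyfip2 (SE 0.120, adjusted p = 0.000232). Of the broadly expressed relatives of these 3 genes, Nckap1 (-0.27, adjusted p = 0.00950) and Wasl (-0.19, adjusted p = 0.0283) fell, and Cyfip1, named after its value was seen, had a log2 fold change of 0.04 (SE 0.0604) and was not called. Also lower was the WAVE subunit gene Abi2 (-0.35, adjusted p = 0.000891). Nckap1 lost its call without vehicle replicate 3 (adjusted p = 0.0557) and Wasl in 5 alternatives.

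The other exchange factors and the GTPase-activating proteins also had members in both directions. Of 24 DBL-type exchange factors, 10 rose and 4 fell. Fgd2, a Cdc42 exchange factor of antigen-presenting cells, rose from 17.1, 11.2 and 12.2 CPM to between 32.7 and 45.2 CPM, with a log2 difference of 1.44 (SE 0.144, adjusted p = 4.79e-05 in the edgeR test). The Rac exchange factor genes Prex1 (0.83, adjusted p = 0.000122) and Vav1 (0.87, adjusted p = 0.000172) also rose. Swap70 (-0.49, adjusted p = 0.000449), Tiam2 (-0.50, adjusted p = 0.00233) and Ect2, which acts in cytokinesis (-0.73, adjusted p = 0.00655), fell. Of 18 GTPase-activating proteins, which return Rac and Cdc42 to the inactive state, 8 rose and 1 fell. Arhgap15 rose by 1.43 (SE 0.140, adjusted p = 4.17e-05), Arhgap30 by 0.86 (adjusted p = 4.14e-05) and Arhgap4 by 0.82 (adjusted p = 0.000104), and Srgap3 fell from 106 ± 20.4 CPM to 49.3 ± 12.9 CPM, with a log2 difference of -1.10 (SE 0.184, adjusted p = 0.00117).

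**Figure D5:**
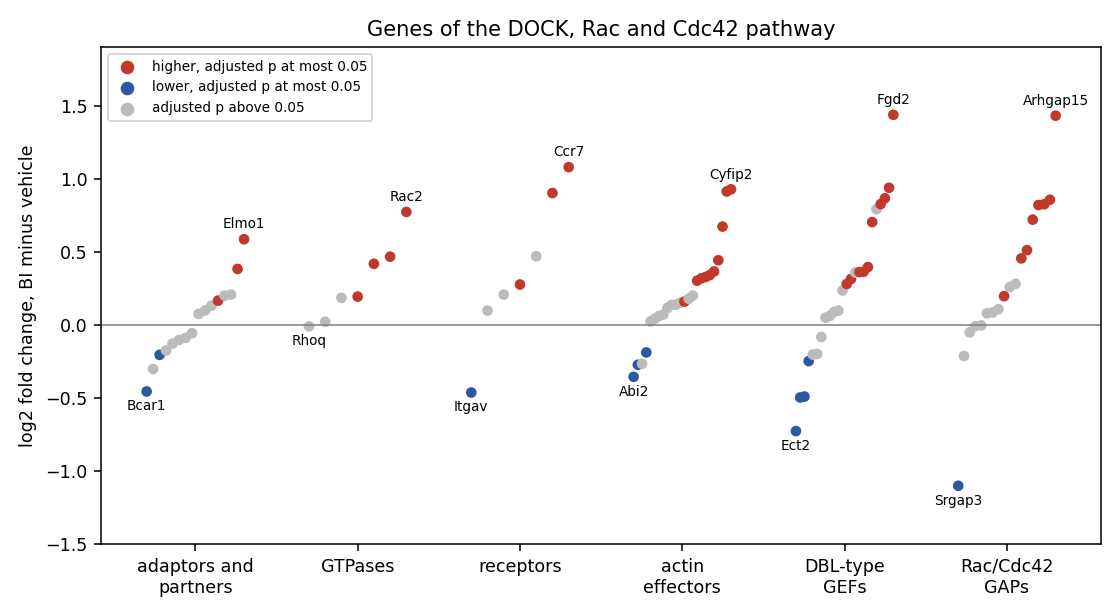
Log2 fold change of BI against vehicle tumors (vertical axis) for the tested genes of 6 pathway lists, coloured by their call in edgeR, with the highest and lowest gene of each list named. Genes called higher reach 1.44 (Fgd2) and genes called lower reach -1.10 (Srgap3).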

How the data were processed

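RNA sequencing of 9 tumors (3 vehicle, 6 BI) was re-analysed. The authors aligned paired-end reads to mm9 with STAR, kept unique alignments, and counted with QuasR the reads starting in an exon of each RefSeq gene; the authors deposited these counts unnormalized, with a length for each of the 18755 genes. Tools and build are also in the submitters' processing notes. Symbols came from RefSeq (18700 of 18755 genes), mm9 positions from GENCODE vM1 and promoters from RefSeq on GRCm38.p6.

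Differential expression used edgeR 4.0.16 in R 4.3.3: TMM (factors 0.984 to 1.02), filterByExpr (minimum count 10, minimum total 15), quasi-likelihood F test without covariates, Benjamini-Hochberg adjustment over 13966 genes. SE is the size of the log2 fold change divided by the root of F. Log2 CPM used a prior count of 2. The fit was tested on simulated data. Single values were tested by exact permutation, two-sided, over 84 divisions of the 9 tumors or 720 pairings of the 6 BI tumors. The labels tie no tumor to a litter or batch, so p-values measure the spread between these samples. Replicate numbers follow accession order.

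The members and gene lists were chosen with earlier results of these data known. Named genes were the members, Dock3, a fixed set of partners, the 3 genes with the smallest p per list and direction, the most abundant gene of each marker list and the 3 genes most like each member. The 2 promoter motifs were chosen after the data were seen. Alternatives were RLE factors, unscaled library totals, no filter, DESeq2 1.42.0, limma-voom 3.58.1, offsets on gene length, a prior count of 0.5, Spearman's rho, CPM in place of RPKM, and leaving out each tumor. Totals per tumor were 16931607 to 33850245 counts.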

Additional observations from a re-analysis of the deposited data

Results flagged for a closer look

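In the BI group, 1 tumor stood apart from the other 5 in 3 of 59 values checked for a sample far from the others, a rule that chance meets in about 1 in 20 groups. For Dock10, BI replicate 5 had a log2 CPM of 6.12, while the others lay between 6.27 and 6.35. For Dock11, the same tumor had 5.30, while the others lay between 5.45 and 5.54. Both values remained above every vehicle tumor. For the epithelial score, BI replicate 6 had 3.83, while the others lay between 2.81 and 3.03. The cause was not tested. Without BI replicate 5 or BI replicate 6, no member changed its call.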

How the results depend on the processing

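Of 135 comparisons of a member's log2 fold change with an alternative, all kept the direction and the side of an adjusted p of 0.05, and the number of members called was the same in every alternative run. Over single tumors left out, log2 fold changes ranged from 0.93 to 1.01 for Dock10, 0.79 to 0.90 for Dock11, 0.70 to 0.83 for Dock2, 0.41 to 0.60 for Dock8, -0.41 to -0.32 for Dock5, -0.43 to -0.34 for Dock9, -0.12 to -0.07 for Dock1, 0.05 to 0.18 for Dock4 and -0.18 to -0.02 for Dock6. Dock5 lay below Dock9 without vehicle replicate 2, BI replicate 3 or BI replicate 5. Over all genes, leaving out 1 tumor gave 1332 to 2026 genes higher and 1172 to 1980 lower, the lowest without vehicle replicate 3 (1332 and 1172; 1289 lower without vehicle replicate 1). The number of pathway genes lower ranged from 7 (without vehicle replicate 3) to 12 (without BI replicate 2), against 11. Among pathway genes, 459 comparisons kept direction and side, 35 lost the threshold (Stk4, Ptk2, Rhoj, Cdc42, Itgb5, Nckap1 and Wasl), and Rac1 ranged from -0.0128 (without vehicle replicate 2) to 0.0640 (without vehicle replicate 1). The r of Dock5 with the leukocyte score ran from -0.32 (without BI replicate 6; -0.18 without BI replicate 2) to 0.37, and that of Dock10 from -0.34 (without BI replicate 5) to 0.56, with a Spearman's rho of -0.20. The causes of these changes were not tested. In CPM without length, the ratio of the highest to the lowest member in vehicle tumors was 5.53 in place of 4.57, still Dock4 over Dock11. The number of relations past the threshold says nothing on stability, since a single relation could pass neither with 6 nor with 5 tumors. No paired analysis was possible because the labels give no replicate numbers shared by the groups.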
